A study of Homo sapiens with 18 samples.

Results

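CFTR and 8 further genes of chloride, sulfate and bicarbonate transport were described across 18 libraries of human colorectal cancer cells, 9 genes of the 61806 in the deposited table of TPM (transcript abundance per gene length, on a scale with a fixed sum in each library). They were taken by symbol and comprise the apical channel CFTR, the SLC26 exchangers SLC26A2, SLC26A6 and SLC26A11, the basolateral carriers SLC12A2, SLC4A2 and SLC4A4, the calcium-activated channel ANO1 and the intracellular exchanger CLCN3. LoVo and DLD-1 are colorectal cancer cell lines. In each, the study had LIN28B cells treated with 5 µM alpelisib, LIN28B cells without it, and cells labelled EV, also without it, with 3 libraries in each of the 6 groups. LIN28B binds let-7 precursors and keeps these microRNAs from maturing, and alpelisib inhibits the alpha catalytic subunit of PI3K. The study's title concerns activation of PI3K/AKT signalling by LIN28B. No EV cells with alpelisib were analysed here, so the drug was measured in LIN28B cells alone. How LIN28B was introduced, how long the drug was given, what the untreated cells received in its place and whether a group came from 1 clone are not given in the sources used here. Nor is it stated whether the 3 libraries came from separate cultures, so the p-values measure the spread between these libraries, which may be technical.

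In colonic crypts, chloride enters the epithelial cell across the basolateral membrane through the sodium-potassium-chloride cotransporter SLC12A2 (NKCC1) and leaves through CFTR, a channel opened by protein kinase A and by cGMP-dependent kinase. Water follows, and with bicarbonate the secretion keeps the mucus layer hydrated. SLC26 proteins exchange chloride for sulfate, bicarbonate or oxalate, and imported sulfate is activated to the donor used to sulfate mucins and proteoglycans. Gain of secretion underlies the diarrhoea of cholera, and loss of CFTR underlies cystic fibrosis.

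The 250 bases before the annotated start of CFTR and of SLC26A2 are shown. Among the 8 genes tested, these 2 had the largest increases with alpelisib in LIN28B cells labelled LoVo. In DLD-1 CFTR had the largest increase, while SLC26A2 did not rise. Both windows come from RefSeq on GRCh38.p14, plus strand, 5′ to 3′, at chr7:117479775-117480024 and chr5:149960508-149960757. Each window ends inside the gene span given below, which comes from another annotation. Capitals mark matches on either strand to any of 9 short motifs. They are the CCAAT box, which reads ATTGG on the other strand, the GC box GGGCGG, the hypoxia-factor cores ACGTG and, in its other form, GCGTG, the CDX elements TTTATG and, likewise, TTTATT, the FOXO forkhead element GTAAACA, the cyclic AMP element TGACGTCA and the TATA element TATAAA.
CFTR: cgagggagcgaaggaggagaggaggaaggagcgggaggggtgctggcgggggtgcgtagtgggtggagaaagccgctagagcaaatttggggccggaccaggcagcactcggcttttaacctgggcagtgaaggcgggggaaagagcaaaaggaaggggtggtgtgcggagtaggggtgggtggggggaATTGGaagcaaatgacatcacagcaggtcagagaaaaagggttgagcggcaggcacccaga
SLC26A2: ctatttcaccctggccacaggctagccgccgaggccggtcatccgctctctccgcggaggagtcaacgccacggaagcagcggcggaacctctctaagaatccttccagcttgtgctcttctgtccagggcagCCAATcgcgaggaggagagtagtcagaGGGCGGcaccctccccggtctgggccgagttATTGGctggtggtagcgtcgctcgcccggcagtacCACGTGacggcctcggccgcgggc
The CFTR window held 1 match, an inverted CCAAT, with 61.2% G or C and 11 CpG dinucleotides. In the SLC26A2 window there were 2 CCAAT matches, 1 GGGCGG match and a CACGTG in which matches to the first hypoxia core on opposite strands overlap, with 66.0% G or C and 24 CpG. Among 35116 RefSeq promoter windows of the same length, 32.0% held the CCAAT box, 42.6% the GC box and 18.5% the first hypoxia core. The CDX element TTTATG was in 9.64% of windows, the other CDX form in 16.0% and the FOXO element in 2.98%, and none of these was in the windows of CFTR and SLC26A2. The second hypoxia core was in 32.2% of windows and the TATA element in 10.7%, again with no match in either gene. Of the 9 genes, 8 had an entry in the promoter table, and SLC26A11 was the one without. In the window used for each, CLCN3 alone among these 8 held the cyclic AMP element, which was in 1.65% of all windows. SLC26A6, SLC4A2, SLC4A4 and CLCN3 had more than 1 entry, of which the first was used.

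LIN28B transcript matched the labels, at 146 to 160 TPM in LoVo-labelled LIN28B cells with alpelisib, 674 to 706 TPM in those without, and 3.66 to 4.91 TPM in LoVo EV cells. In DLD-1 it was 139 to 150 TPM with alpelisib, 408 to 493 TPM without, and 1.17 to 2.74 TPM in EV cells. LIN28B was thus lower with alpelisib, with a log2(TPM + 1) difference of -1.68 in DLD-1 (limma adjusted p = 1.9e-06). In LoVo-labelled cells the difference was -2.15 (limma adjusted p = 6.6e-08). The contrasts of treated and untreated cells therefore also compare unequal LIN28B levels, and the part of these in the differences was not tested. The LoVo-labelled LIN28B libraries stood apart from LoVo EV. With limma on log2(TPM + 1), 56.8% of 18537 tested genes were called (Benjamini-Hochberg adjusted p below 0.05) between LoVo-labelled LIN28B and LoVo EV cells, 55.5% between LoVo EV and DLD-1 EV cells, but 14.0% where LoVo-labelled LIN28B cells were set against their DLD-1 counterparts. Under the LoVo label the effect of LIN28B and a difference in cells cannot be told apart, and these libraries are therefore called LoVo-labelled throughout. Mitochondrially encoded transcripts took 24.0%, 23.1% and 14.5% of TPM in the 3 LoVo EV libraries, against 7.24% to 15.8% in the other 15. A set of 8 epithelial markers summed to 7029 to 15200 TPM, and each reached 1 TPM in at least 1 library of every group. KRT20 did so in only 1 LoVo EV library, with 0.681, 0.328 and 1.05 TPM there, against a mean of 124 TPM in DLD-1 EV. In LIN28B cells KRT20 averaged 4.72 TPM without and 7.48 TPM with alpelisib under the LoVo label, against 114 and 145 TPM in DLD-1. In contrast, 5 fibroblast markers summed to at most 14.9 TPM, 5 leukocyte markers to at most 5.93 TPM and 3 endothelial markers to at most 1.53 TPM.

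Of the 9 genes, 8 reached 1 TPM in at least 3 libraries and were tested. SLC4A4 did not, and ANO1 passed only through LoVo-labelled and LoVo EV libraries. The calls of ANO1 counted below all involve these groups, so they are not independent of the filter. With alpelisib in DLD-1 LIN28B cells CFTR rose and CLCN3 fell, 2 of the 8, where 31.0% of all genes tested were called, 9.05% higher and 21.9% lower. In LoVo-labelled LIN28B cells alpelisib raised CFTR, SLC26A2 and SLC4A2 and lowered SLC26A6 and SLC12A2, 5 of the 8, where 39.7% of all genes were called, 15.1% higher and 24.6% lower. LIN28B against EV in DLD-1 gave 0 of 8 calls with limma, 1 at an unadjusted p below 0.05 (SLC26A6), beside 2.53% of all genes. Under the LoVo label, LIN28B against EV gave 7 of 8 calls, 6 higher and 1 lower, next to 56.8% of all genes, 40.3% higher and 16.5% lower. LIN28B with alpelisib against EV in DLD-1 gave 3 of 8, 1 higher and 2 lower, against 29.9% of all genes, 9.71% higher and 20.2% lower. LoVo EV against DLD-1 EV gave 6 of 8, 1 higher and 5 lower, against 55.5% of all genes, 17.3% higher and 38.2% lower. LoVo-labelled against DLD-1 LIN28B cells gave 4 of 8, all higher, against 14.0% of all genes, 7.96% higher. The median difference of the 8 was -0.05 for alpelisib in DLD-1 and 0.29 in LoVo-labelled cells, beside -0.09 and -0.06 over all genes, -0.15 for LIN28B in DLD-1 beside 0.02, and 1.02 under the LoVo label beside 0.26. Several of these contrasts share libraries: the untreated LIN28B groups serve as reference for the drug and as the tested side against EV. The 9 genes were chosen with earlier results of these data known, so these shares do not test the set against all genes.

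**Figure D1:**
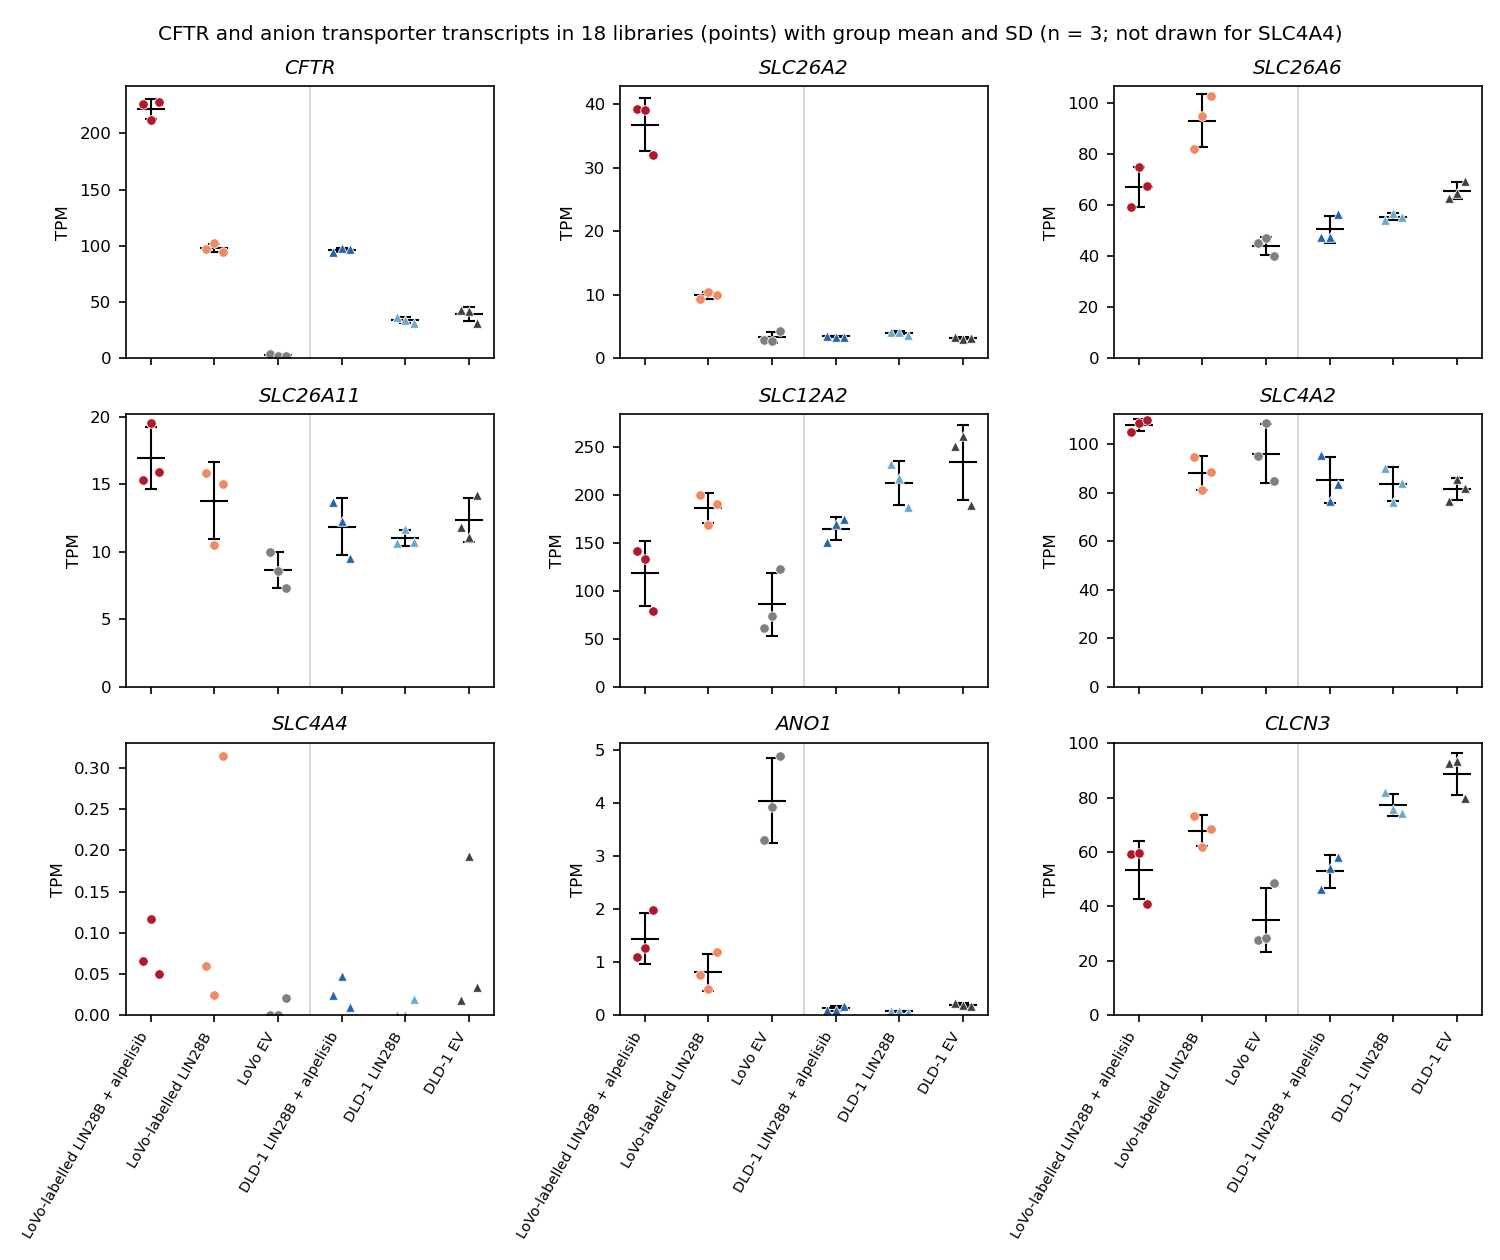
Each point is 1 library and each panel 1 gene, in TPM on a linear axis from 0, with bars for the group mean and SD (n = 3; not drawn for SLC4A4). CFTR and SLC26A2 were highest in LoVo-labelled LIN28B cells with alpelisib, at means of 222 and 36.8 TPM, SLC12A2 and CLCN3 were highest in DLD-1 EV cells, at means of 234 and 88.6 TPM, and ANO1 was highest in LoVo EV cells, at 4.04 TPM.

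CFTR is the chloride and bicarbonate channel of the apical membrane, activated by protein kinase A (ENSG00000001626, GRCh38 chr7:117465784-117715971, plus strand). CFTR was measured at 226, 212 and 227 TPM in LoVo-labelled LIN28B cells with alpelisib, against 97.4, 102 and 94.8 TPM in those without. In DLD-1 LIN28B cells it was 94.2, 98.2 and 96.8 TPM with alpelisib, against 36.9, 34.2 and 31.8 TPM without. In neither set of cells did treated and untreated libraries overlap, and the treated DLD-1 libraries reached the level of the untreated LoVo-labelled ones. Alpelisib raised CFTR by 1.47 on the log2(TPM + 1) scale in DLD-1 (SE 0.15, limma adjusted p = 5.89e-06), a 2.81-fold ratio of means. In LoVo-labelled cells it raised CFTR by 1.17 (SE 0.15, limma adjusted p = 1.99e-05), a 2.26-fold ratio. The drug effect in LoVo-labelled minus that in DLD-1 cells was -0.30 (95% interval -0.74 to 0.14, limma adjusted p = 0.616), so the 2 effects were not shown to differ. Scaling the libraries by median of ratios left 1.61 in DLD-1 and 1.28 in LoVo-labelled cells.

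Without the drug, CFTR in LoVo EV cells differed from DLD-1 EV and LoVo-labelled LIN28B cells by more than the drug moved it. LoVo EV libraries held 4.31, 2.41 and 2.25 TPM and DLD-1 EV libraries 43.4, 41.9 and 32.0 TPM. LoVo EV was below DLD-1 EV, with a difference of -3.35 on the log2(TPM + 1) scale (SE 0.15, limma adjusted p = 2.33e-11). LoVo-labelled LIN28B cells, at 98.2 ± 3.77 TPM, stood 32.8-fold above LoVo EV cells, at 2.99 ± 1.15 TPM (SD, n = 3 each), a difference of 4.67 (SE 0.15, limma adjusted p = 1.04e-12). In DLD-1, where the line is the same on both sides, LIN28B cells averaged 34.3 ± 2.54 TPM and EV cells 39.1 ± 6.22 TPM (SD, n = 3 each), a difference of -0.17 (95% interval -0.49 to 0.14, limma adjusted p = 0.685). LIN28B cells with alpelisib were above EV cells of DLD-1, by 1.29 (SE 0.15, limma adjusted p = 1.77e-05). LoVo-labelled LIN28B cells were above DLD-1 LIN28B cells by 1.49 (SE 0.15, limma adjusted p = 2.77e-06), close to the drug difference of 1.47 in DLD-1. In order of group means, LoVo-labelled LIN28B without drug and DLD-1 LIN28B with drug had overlapping libraries, as did DLD-1 EV and DLD-1 LIN28B, and the other neighbours were separate. Among the genes tested, CFTR lay at the 97.4th percentile of mean TPM in LoVo-labelled cells with alpelisib, the 93.3rd in DLD-1 with alpelisib and the 32.5th in LoVo EV.

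The CFTR span overlaps CTTNBP2 on the other strand, which encodes a cortactin-binding protein. CTTNBP2 averaged 12.3 TPM with alpelisib and 6.63 TPM without in LoVo-labelled LIN28B cells, and 6.26 TPM with and 3.88 TPM without in DLD-1. It rose by 0.80 in LoVo-labelled cells (limma adjusted p = 0.000439) and by 0.56 in DLD-1 (limma adjusted p = 0.00867), though not in DLD-1 without alpelisib replicate 1 (limma adjusted p = 0.0531). Whether counting used strand is not given in the sources used here, so reads could not be divided between the genes. CTTNBP2 was at most 12.4 TPM in any library, but in LoVo EV it averaged 5.045 TPM, above CFTR at 2.99 TPM. The CFTR span also holds processed pseudogenes, AC000111.2 on the same strand at up to 5.21 TPM and AC000111.1 on the other at up to 4.58 TPM.

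Over the 18 libraries, the genes whose log2(TPM + 1) was most like that of CFTR, among 13939 searched, were SELENBP1, a selenium-binding methanethiol oxidase (r = 0.982), the transporter ABCC5 and the microtubule protein MAP2 (both r = 0.975), the intestinal homeobox factor CDX2 (r = 0.975) and the peroxisomal thiolase ACAA1 (r = 0.973). The points share 6 groups of 3, and most of the range is between groups. CDX2 averaged 627 ± 75.4 TPM with alpelisib and 402 ± 53.9 TPM without in LoVo-labelled LIN28B cells, and 94.9 ± 14.8 TPM in LoVo EV (SD, n = 3 each). In DLD-1 it averaged 353 ± 42.8 TPM with alpelisib, 227 ± 27.5 TPM without, and 254 ± 19.9 TPM in EV (SD, n = 3 each). Alpelisib raised CDX2 by 0.64 in both DLD-1 (limma adjusted p = 0.0023) and LoVo-labelled cells (limma adjusted p = 0.00136), a smaller log2 step than that of CFTR. CDX2 is shown here for its likeness to CFTR in these same libraries, so the tests are not independent of that choice. A link between the genes was not tested.

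**Figure D2:**
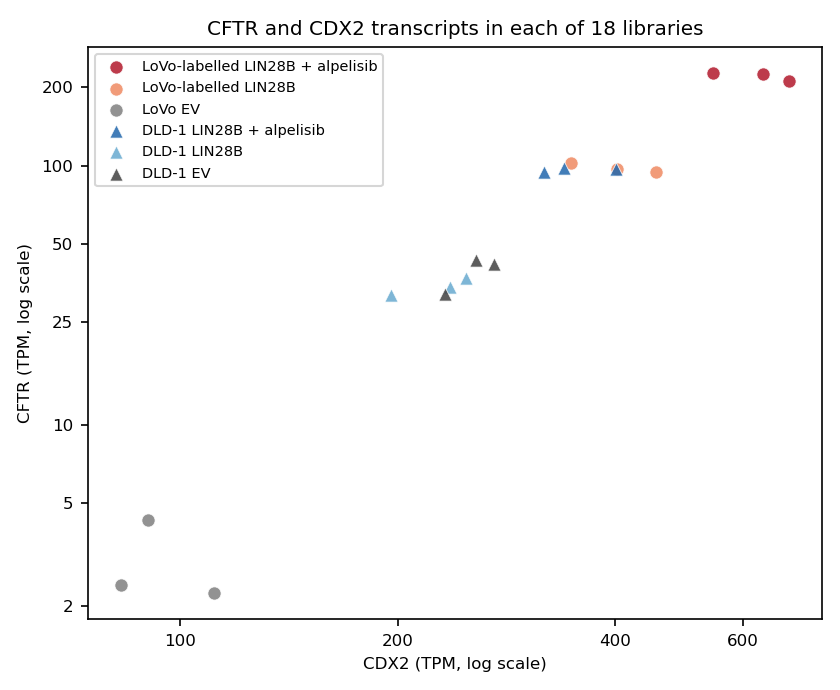
CFTR against CDX2 in TPM, both axes on a log scale, with 1 symbol for each of 18 libraries (circles LoVo-labelled or LoVo, triangles DLD-1). LoVo-labelled LIN28B libraries with alpelisib lie at 212 to 227 TPM of CFTR and LoVo EV libraries at 2.25 to 4.31 TPM, while treated DLD-1 and untreated LoVo-labelled LIN28B libraries lie together at 94.2 to 102 TPM.

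SLC26A2, the sulfate transporter mutated in diastrophic dysplasia, imports sulfate in exchange for chloride or oxalate (ENSG00000155850, GRCh38 chr5:149960737-149993455, plus strand). It stood at 39.3, 39.1 and 32.0 TPM in LoVo-labelled LIN28B cells with alpelisib, against 9.32, 10.4 and 10.0 TPM without. In DLD-1 LIN28B cells the libraries held 3.53, 3.45 and 3.45 TPM with alpelisib, against 4.22, 4.19 and 3.77 TPM without. Every treated LoVo-labelled library was above every untreated one, and every treated DLD-1 library was below every untreated one. SLC26A2 rose by 1.79 in LoVo-labelled cells (SE 0.13, limma adjusted p = 1.24e-07), a 3.71-fold ratio of means. In DLD-1 the difference was -0.18 (95% interval -0.46 to 0.11, limma adjusted p = 0.343). The drug effect in LoVo-labelled minus that in DLD-1 cells was 1.96 (SE 0.19, 95% interval 1.56 to 2.36, limma adjusted p = 9.17e-05). SLC26A2 was the 1 gene of the 8 called in this contrast, in which 0.847% of all genes were called.

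LoVo EV held 2.84, 2.74 and 4.35 TPM of SLC26A2 and DLD-1 EV 3.40, 3.01 and 3.15 TPM, a difference of 0.02 with overlapping libraries (limma adjusted p = 0.897). LoVo-labelled LIN28B cells averaged 9.92 ± 0.553 TPM and LoVo EV cells 3.31 ± 0.901 TPM (SD, n = 3 each), a difference of 1.36 (SE 0.13, limma adjusted p = 2.79e-07). DLD-1 LIN28B cells averaged 4.06 ± 0.249 TPM and DLD-1 EV cells 3.19 ± 0.196 TPM (SD, n = 3 each), a difference of 0.27 that did not pass (95% interval -0.01 to 0.55, limma adjusted p = 0.372) although the libraries did not overlap. Between the untreated LIN28B groups, LoVo-labelled cells were 1.11 above DLD-1 cells (limma adjusted p = 2.14e-05). TIGD6, which overlaps SLC26A2 on the other strand, differed with alpelisib by -0.12 in LoVo-labelled cells (limma adjusted p = 0.66). The genes most like SLC26A2 over the 18 libraries were the hedgehog ligand IHH and the prostaglandin transporter SLCO2A1 (both r = 0.97) and the transcription factor CREB3L1 (r = 0.96). IHH averaged 8.01 TPM with alpelisib and 1.61 TPM without in LoVo-labelled LIN28B cells, and 0.765 TPM with and 0.224 TPM without in DLD-1.

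SLC26A6, an apical chloride-bicarbonate and oxalate exchanger that interacts with CFTR (ENSG00000225697, GRCh38 chr3:48625723-48635493, minus strand), did not follow SLC26A2. In LoVo-labelled LIN28B cells SLC26A6 was at 59.1, 74.8 and 67.6 TPM with alpelisib, against 81.9, 94.7 and 102.5 TPM without, and no library overlapped. It fell by 0.46 (SE 0.10, limma adjusted p = 0.00219). In DLD-1 LIN28B cells it was 47.5, 47.7 and 56.7 TPM with alpelisib, against 54.2, 56.9 and 55.3 TPM without, overlapping, with a difference of -0.13 (limma adjusted p = 0.355). The drug effect in LoVo-labelled minus that in DLD-1 cells was -0.33 (limma adjusted p = 0.358). LoVo EV had 45.1, 47.1 and 39.9 TPM and DLD-1 EV 62.8, 64.9 and 69.3 TPM. LoVo-labelled LIN28B was 1.06 above LoVo EV (SE 0.10, limma adjusted p = 2.87e-07), a 2.11-fold ratio. In DLD-1, SLC26A6 was lower in LIN28B cells with alpelisib than in EV cells, by a difference of -0.37 (limma adjusted p = 0.0129). Scaling by median of ratios gave -0.26 in its place (limma adjusted p = 0.104), and the call was also lost without alpelisib replicate 1 (limma adjusted p = 0.0587) or 2 (limma adjusted p = 0.053). The lower level in LoVo EV than in DLD-1 EV, -0.57 (limma adjusted p = 0.000202), was -0.27 after that scaling (limma adjusted p = 0.0639).

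SLC26A11, a sodium-independent sulfate transporter (ENSG00000181045, GRCh38 chr17:80219699-80253500, plus strand), varied little. Group means ran between 17.0 TPM, in drug-treated cells of the LoVo-labelled LIN28B group, and 8.66 TPM, in the EV cells of LoVo, and only LoVo EV was separate from its neighbour in the order. The drug difference was 0.29 in LoVo-labelled (limma adjusted p = 0.173) and 0.08 in DLD-1 cells (limma adjusted p = 0.755). Its increase of 0.60 in LoVo-labelled LIN28B over LoVo EV (limma adjusted p = 0.00464) was 0.27 with median-of-ratios scaling (limma adjusted p = 0.22) and 0.42 without mitochondrial transcripts (limma adjusted p = 0.0535). LoVo EV lay below DLD-1 EV with a difference of -0.47 (limma adjusted p = 0.0213), which was not called under that scaling (-0.20, limma adjusted p = 0.379), without mitochondrial transcripts (limma adjusted p = 0.144), without LoVo EV replicate 3 (limma adjusted p = 0.0853) or without DLD-1 EV replicate 3 (limma adjusted p = 0.0921). SGSH, a lysosomal sulfamidase that overlaps SLC26A11 on the other strand, was at up to 40.5 TPM and rose by 0.79 in the same contrast of LoVo-labelled LIN28B and LoVo EV cells (limma adjusted p = 0.000151), so reads of the pair may be mixed. Of 7 other SLC26 genes, SLC26A1 was tested, and SLC26A3, the chloride-bicarbonate exchanger of colonic surface cells, was at or below 0.6 TPM in every library.

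SLC12A2 loads the cell with chloride from the basolateral side (ENSG00000064651, GRCh38 chr5:128083766-128189688, plus strand). With alpelisib it was lower in both sets of LIN28B cells, where CFTR was higher, but it was called in LoVo-labelled cells only. Both genes were higher in LoVo-labelled LIN28B than in LoVo EV cells. SLC12A2 was at 142, 134 and 79.3 TPM in LoVo-labelled LIN28B cells with alpelisib, against 199.9, 169 and 191 TPM without. In DLD-1 LIN28B cells the values were 151, 169.5 and 175 TPM with alpelisib, against 232, 218 and 187 TPM without. Treated libraries were below untreated ones in both, with 1 treated LoVo-labelled library far below the other two. SLC12A2 fell by 0.69 in LoVo-labelled cells (SE 0.23, limma adjusted p = 0.0234), and in DLD-1 the difference was -0.36 (95% interval -0.84 to 0.12, limma adjusted p = 0.253). Without the treated replicate 3 the difference in LoVo-labelled cells was -0.43 (limma adjusted p = 0.143), and the call was also lost without the untreated replicate 1 (limma adjusted p = 0.0735) or 3 (limma adjusted p = 0.0601) and with all genes kept (limma adjusted p = 0.0567). In a fit of those 2 groups alone, the DLD-1 difference passed (limma adjusted p = 0.0167). DLD-1 LIN28B cells with alpelisib differed from DLD-1 EV by -0.49 (limma adjusted p = 0.117), which also passed in a fit of the 2 groups alone (limma adjusted p = 0.0146). The drug effect in LoVo-labelled minus that in DLD-1 cells was -0.33 (limma adjusted p = 0.744).

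LoVo EV libraries held 61.2, 74.1 and 123.5 TPM of SLC12A2, and DLD-1 EV libraries 250.9, 262 and 190.0 TPM. The LoVo EV group was below DLD-1 EV, with a difference of -1.48 (SE 0.23, limma adjusted p = 3.88e-05). LoVo-labelled LIN28B cells were 1.16 above LoVo EV (SE 0.23, limma adjusted p = 0.000354), but 0.59 without LoVo EV replicates 1 and 2, the libraries with 24.0% and 23.1% mitochondrial transcripts (limma adjusted p = 0.0852). SLC12A2 in DLD-1 LIN28B against EV cells differed by -0.13 (limma adjusted p = 0.881). In each of the 6 groups the lowest SLC12A2 value was in the library with the highest share of mitochondrial transcripts, for example 12.2% in the treated LoVo-labelled library at 79.3 TPM, against 9.27% and 8.22% in the other two. Without mitochondrial transcripts SLC12A2 kept its calls in the contrasts above, but that removal only rescales the remaining genes of each library. The part of mitochondrial share in these differences was not tested. The genes most like it over the 18 libraries were the cyclic nucleotide exporter ABCC4 (r = 0.984), the receptor phosphatase PTPRK (r = 0.981) and the splicing factor HNRNPF (r = 0.98).

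SLC4A2 is the basolateral chloride-bicarbonate exchanger AE2 (ENSG00000164889, GRCh38 chr7:151057210-151076527, plus strand). It was the steadiest of the 8, with group means between 108 TPM in LoVo-labelled LIN28B cells with alpelisib and 81.5 TPM in DLD-1 EV, and neighbours in the order overlapped throughout. SLC4A2 was at 105, 108.5 and 110.1 TPM with alpelisib and 94.6, 81.0 and 88.7 TPM without in LoVo-labelled LIN28B cells, which did not overlap. The rise was 0.29 (SE 0.10, limma adjusted p = 0.0293), and it was not called without the untreated replicate 2 (limma adjusted p = 0.115) or 3 (limma adjusted p = 0.0606), or without the treated replicate 2 (limma adjusted p = 0.0656) or 3 (limma adjusted p = 0.0784). In DLD-1 LIN28B cells it was 95.4, 76.7 and 83.5 TPM with alpelisib and 90.0, 76.1 and 84.2 TPM without, a difference of 0.03 (limma adjusted p = 0.877). LoVo-labelled LIN28B against LoVo EV gave -0.12 (limma adjusted p = 0.328) and LoVo EV against DLD-1 EV gave 0.23 (limma adjusted p = 0.0629). With median-of-ratios scaling both passed, at -0.48 (limma adjusted p = 0.00183) and 0.53 (limma adjusted p = 0.00086). Without mitochondrial transcripts both passed as well, at -0.32 (limma adjusted p = 0.0272) and 0.40 (limma adjusted p = 0.00746), and so did the difference between EV groups without LoVo EV replicate 3 (limma adjusted p = 0.014). SLC4A4, the electrogenic sodium-bicarbonate cotransporter NBCe1 (ENSG00000080493, GRCh38 chr4:71062667-71572087, plus strand), was near the floor. Its highest value was 0.315 TPM, in 1 LoVo-labelled LIN28B library without drug, and it was listed at 0 in 2 LoVo EV and 2 DLD-1 LIN28B libraries.

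ANO1 (TMEM16A), the calcium-activated chloride channel (ENSG00000131620, GRCh38 chr11:70078302-70189528, plus strand), had the reverse order to CFTR between the EV groups. LoVo EV libraries held 3.31, 3.93 and 4.88 TPM and DLD-1 EV libraries 0.237, 0.199 and 0.171 TPM. LoVo EV was 20.0-fold above DLD-1 EV, a difference of 2.06 on the log2(TPM + 1) scale (SE 0.18, limma adjusted p = 9.51e-08), which understates the ratio at such levels. ANO1 entered the tests only through LoVo EV and LoVo-labelled libraries, so p-values for contrasts with those groups are not independent of the filter. LoVo-labelled LIN28B cells had 1.09, 1.26 and 1.98 TPM with alpelisib, against 0.756, 0.499 and 1.19 TPM without. These overlapped, and the drug difference was 0.43 (limma adjusted p = 0.0711), which passed with median-of-ratios scaling (0.48, limma adjusted p = 0.0371) and without untreated replicate 3 (limma adjusted p = 0.0315) or treated replicate 1 (limma adjusted p = 0.0488). DLD-1 LIN28B cells had 0.0999, 0.110 and 0.185 TPM with alpelisib, against 0.0828, 0.0756 and 0.0667 TPM without, a range in which log2(TPM + 1) compresses differences. ANO1 was lower in LoVo-labelled LIN28B than in LoVo EV cells, with a difference of -1.48 (SE 0.18, limma adjusted p = 3.43e-06), and above DLD-1 LIN28B cells by 0.74 (SE 0.18, limma adjusted p = 0.0116). Without LoVo-labelled LIN28B replicate 3 that last difference was 0.59 (limma adjusted p = 0.0641), and in a fit of those 2 groups alone ANO1 was too low to be tested. The scramblase and channel ANO6 was likewise highest in LoVo EV and lowest in DLD-1, with 2.69 ± 0.127 TPM in LoVo-labelled LIN28B cells, 0.0198 ± 0.0217 TPM in DLD-1 LIN28B cells and 14.1 ± 5.06 TPM in LoVo EV cells (SD, n = 3 each).

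CLCN3, an endosomal chloride-proton exchanger (ENSG00000109572, GRCh38 chr4:169612633-169723673, plus strand), varied with SLC12A2, with r = 0.954 over the 18 libraries, and its lowest value, too, was in the library of highest mitochondrial share in each of the 6 groups. CLCN3 was at 46.3, 54.3 and 58.0 TPM in DLD-1 LIN28B cells with alpelisib, against 81.9, 75.7 and 74.3 TPM without. In LoVo-labelled LIN28B cells it was 59.4, 59.7 and 41.0 TPM with alpelisib, against 73.1, 61.8 and 68.6 TPM without. Neither pair of groups overlapped. The difference in DLD-1 was -0.54 (SE 0.18, limma adjusted p = 0.03), and the difference in LoVo-labelled cells -0.36 (limma adjusted p = 0.126). The DLD-1 call was lost with median-of-ratios scaling (-0.40, limma adjusted p = 0.0547), with all genes kept (limma adjusted p = 0.0694) and in 5 of 6 fits that left out 1 library (limma adjusted p = 0.055 to 0.118). CLCN3 in DLD-1 LIN28B cells with alpelisib was also below DLD-1 EV, with a difference of -0.74 (SE 0.18, limma adjusted p = 0.00585). LoVo EV, at 27.8, 28.5 and 48.6 TPM, was below DLD-1 EV, at 92.7, 93.5 and 79.6 TPM, with a difference of -1.36 (SE 0.18, limma adjusted p = 8.17e-06). LoVo-labelled LIN28B was above LoVo EV by 0.98 (SE 0.18, limma adjusted p = 0.000193), but by 0.47 without LoVo EV replicates 1 and 2 (limma adjusted p = 0.0598).

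**Figure D3:**
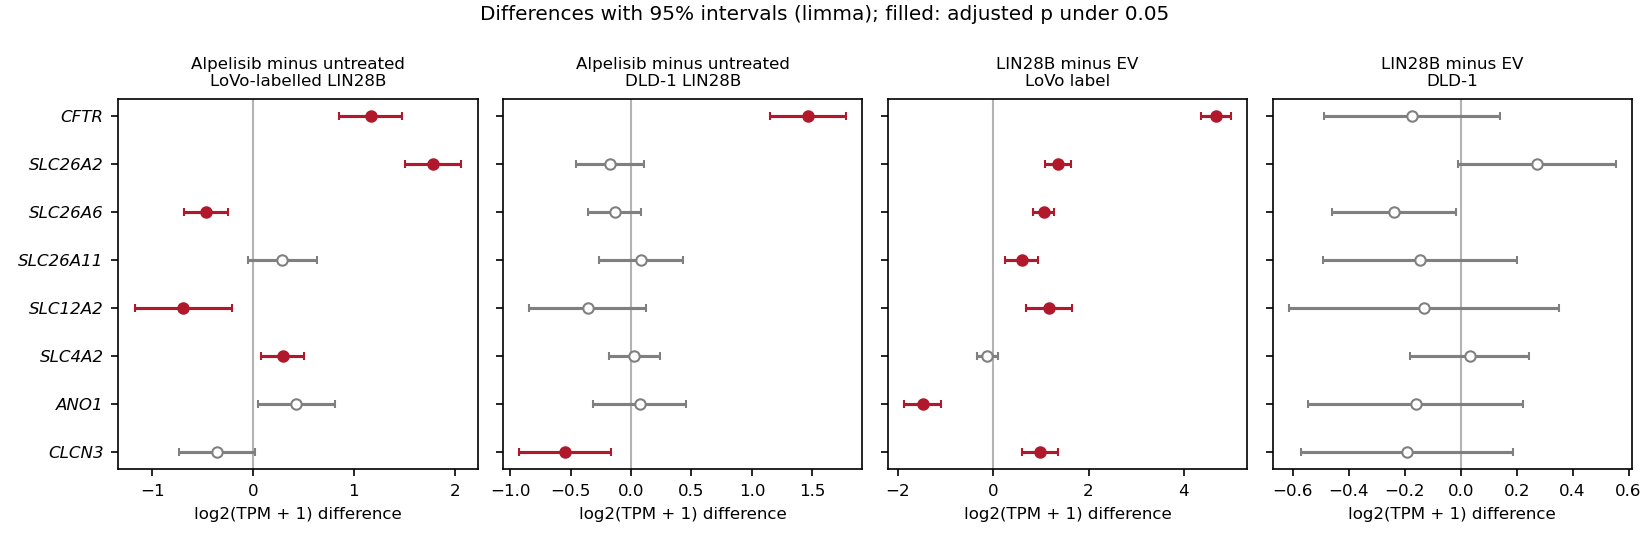
Differences in log2(TPM + 1), LIN28B with alpelisib minus without and LIN28B minus EV, for each tested gene with 95% intervals from limma, and with its own horizontal range in each panel. CFTR was 1.47 higher with alpelisib in DLD-1 and 1.17 higher in LoVo-labelled LIN28B cells, SLC26A2 was 1.79 higher in LoVo-labelled cells and -0.18 in DLD-1, and none of the 8 passed for LIN28B against EV in DLD-1.

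The genes around the 9 were then counted in 12 lists, 135 genes of which 104 were tested. The lists, too, were chosen with earlier results known, so the shares beside all genes describe them and test nothing. With alpelisib 7 were called higher and 28 lower in DLD-1 LIN28B cells, 33.7% of the 104 against 31.0% of all genes, with a median difference of -0.09 for both. In LoVo-labelled LIN28B cells 26 were higher and 30 lower, 53.8% against 39.7%, with medians of -0.08 for the lists and -0.06 for all genes. The direction of such counts depends on scaling: with median-of-ratios scaling the counts were 19 higher and 21 lower in DLD-1 and 30 higher and 26 lower in LoVo-labelled cells. Over all genes, the share of calls that were higher was 29.2% as deposited and 47.6% scaled in DLD-1, and 38.1% as deposited and 48.9% scaled in LoVo-labelled cells. The scaling moved the median of all genes by 0.10 in DLD-1 and 0.09 in LoVo-labelled cells.

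STK39 and OXSR1, the kinases that activate SLC12A2, were among the genes that fell with the drug. Of 7 tested genes of WNK and SPAK control, 3 fell in DLD-1, 42.9% against 31.0% of all genes called, and 4 in LoVo-labelled cells, 57.1% against 39.7%, while none passed as higher (3 lower in each with median-of-ratios scaling). STK39, the kinase SPAK, averaged 12.1 ± 1.77 TPM with alpelisib and 20.8 ± 2.64 TPM without in DLD-1 LIN28B cells (SD, n = 3 each; -0.73, limma adjusted p = 0.00115). In LoVo-labelled cells STK39 averaged 12.3 ± 0.400 TPM with alpelisib and 21.3 ± 0.524 TPM without (SD, n = 3 each; -0.75, limma adjusted p = 0.00057). OXSR1, its paralogue, fell by 0.69 in DLD-1 (limma adjusted p = 0.00034) and by 0.58 in LoVo-labelled cells (limma adjusted p = 0.000709). CAB39, the scaffold that activates both kinases, fell by 0.55 in DLD-1 (limma adjusted p = 0.0196), a call that 2 of 6 fits without 1 library lost (limma adjusted p up to 0.0949). In LoVo-labelled LIN28B cells CAB39 averaged 44.4 ± 7.12 TPM with alpelisib and 61.2 ± 3.58 TPM without (SD, n = 3 each), with no overlap of libraries. Among other SLC12 genes the potassium-chloride cotransporter SLC12A7 fell by 0.71 in DLD-1 (limma adjusted p = 0.00153) and by 0.69 in LoVo-labelled cells (limma adjusted p = 0.00105).

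Genes of sulfate activation and sulfation moved in both directions. Of 10 tested, 1 rose and 5 fell in DLD-1, 6 of 10 called against 31.0% of all genes, and 2 rose and 5 fell in LoVo-labelled cells, 70.0% against 39.7%, which became 2 and 4 in DLD-1 and 3 and 5 in LoVo-labelled cells with median-of-ratios scaling. PAPSS2, which makes the sulfate donor PAPS, averaged 16.5 ± 2.98 TPM with alpelisib and 40.5 ± 3.26 TPM without in LoVo-labelled LIN28B cells (SD, n = 3 each; -1.26, limma adjusted p = 1.62e-05). In DLD-1 it averaged 31.9 ± 2.69 TPM with alpelisib and 62.9 ± 2.54 TPM without (SD, n = 3 each; -0.96, limma adjusted p = 0.000369). BPNT2, the Golgi phosphatase that clears the by-product of sulfation, fell by 1.12 in LoVo-labelled (limma adjusted p = 2.84e-06) and by 1.02 in DLD-1 cells (limma adjusted p = 1.94e-05). SUMF1, which activates sulfatases, rose by 0.60 in LoVo-labelled cells (limma adjusted p = 0.00304), and in DLD-1 the difference was 0.38 (limma adjusted p = 0.0515). SLC13A4, a sodium-sulfate cotransporter, rose in both, by 0.78 in LoVo-labelled cells (limma adjusted p = 0.00318) and by 0.54 in DLD-1 (limma adjusted p = 0.0345).

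Of 15 tested genes that feed cyclic AMP or cGMP to CFTR, 5 fell and none rose in DLD-1, 33.3% called against 31.0% of all genes, and 3 rose and 4 fell in LoVo-labelled cells, 46.7% against 39.7%. With median-of-ratios scaling 1 rose and 3 fell in DLD-1 and the counts in LoVo-labelled cells were again 3 and 4. PRKACA, a catalytic subunit of protein kinase A, fell by 0.63 in DLD-1 (limma adjusted p = 0.0018) and by 0.58 in LoVo-labelled cells (limma adjusted p = 0.00186). Its regulatory subunit PRKAR1A fell by 0.80 in DLD-1 (limma adjusted p = 0.00608) and by 0.81 in LoVo-labelled cells (limma adjusted p = 0.0037). VIPR1, a receptor for vasoactive intestinal peptide, averaged 42.4 ± 2.35 TPM with alpelisib and 25.1 ± 2.31 TPM without in LoVo-labelled LIN28B cells (SD, n = 3 each; 0.74, limma adjusted p = 9.56e-06). In DLD-1 VIPR1 averaged 47.9 TPM with alpelisib and 43.3 TPM without, a difference of 0.15 (limma adjusted p = 0.221), and its drug effect in LoVo-labelled minus DLD-1 cells was 0.59 (limma adjusted p = 0.0283), the 1 call among the 104 list genes in that contrast. That call was lost with median-of-ratios scaling (limma adjusted p = 0.0511), without mitochondrial transcripts (limma adjusted p = 0.0596) and in 8 of 12 fits without 1 library.

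Among 12 tested scaffolds and chaperones of CFTR, 2 fell and none rose in DLD-1, 16.7% called against 31.0% of all genes, and 3 rose and 2 fell in LoVo-labelled cells, 41.7% against 39.7%. The counts with median-of-ratios scaling were 3 and 2 in each. The ubiquitin ligase RNF5, which marks misfolded CFTR, fell by 0.82 in DLD-1 (limma adjusted p = 0.000257) and by 0.63 in LoVo-labelled cells (limma adjusted p = 0.00103). USP10, a deubiquitinase of endocytosed CFTR, fell by 0.52 in DLD-1 (limma adjusted p = 0.00909) and by 0.68 in LoVo-labelled cells (limma adjusted p = 0.000911). NHERF2, an apical scaffold, rose by 0.49 in LoVo-labelled cells (limma adjusted p = 0.000615). Of 9 transcription factors with known sites at the CFTR locus, 1 rose and 1 fell in DLD-1 (4 and 1 scaled), 22.2% against 31.0%, and 5 rose and 3 fell in LoVo-labelled cells (5 and 3 scaled), 88.9% against 39.7%. FOXA2 fell in both, by 0.73 in DLD-1 (limma adjusted p = 0.00107) and by 0.96 in LoVo-labelled cells (limma adjusted p = 5.62e-05), and FOXA1 and KLF5 rose by 0.77 and 0.53 in LoVo-labelled cells (limma adjusted p = 1.36e-05 and 0.00014).

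Of 18 other chloride channels, 2 rose and 5 fell in each set of cells, 38.9% called against 31.0% of all genes in DLD-1 and 39.7% in LoVo-labelled cells, or 2 and 2 in DLD-1 and 3 and 4 in LoVo-labelled cells with median-of-ratios scaling. BEST1, a calcium-activated anion channel, rose by 0.86 in DLD-1 (limma adjusted p = 0.000901) and by 1.03 in LoVo-labelled cells (limma adjusted p = 0.000108). CLCN5, an endosomal exchanger related to CLCN3, averaged 0.622 ± 0.170 TPM with alpelisib and 3.43 ± 0.395 TPM without in DLD-1 LIN28B cells (SD, n = 3 each; -1.45, limma adjusted p = 1.67e-05). In LoVo-labelled cells CLCN5 fell by 1.11 (limma adjusted p = 6.89e-05). Of 8 basolateral potassium channel and sodium pump genes, 1 rose and 3 fell in DLD-1 (3 and 3 scaled), 4 of 8 against 31.0%, and 3 rose and 3 fell in LoVo-labelled cells (4 and 2 scaled), 75.0% against 39.7%. FXYD3, a regulator of the sodium pump, rose by 1.15 in DLD-1 (limma adjusted p = 9.68e-06) and by 1.07 in LoVo-labelled cells (limma adjusted p = 7.21e-06). The potassium channel KCNQ1 fell by 0.53 in DLD-1 (limma adjusted p = 0.00359). KCNQ1 was lower with alpelisib in LoVo-labelled LIN28B cells too, at 7.26 ± 0.675 TPM with and 11.8 ± 1.35 TPM without (SD, n = 3 each), with no overlap of libraries.

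For LIN28B against EV in DLD-1, 5 of the 104 list genes were called, 4.81% against 2.53% of all genes, in a contrast where leaving out 1 library gave 185 to 228 calls over all genes, against 469. Of the 5, SLC9A2 was called in all 6 fits without 1 library, VIPR1 in 2, FXYD3 and SCNN1A in 1 each and FOXA2 in 0, with limma adjusted p up to 0.125 for VIPR1, 0.113 for FXYD3, 0.115 for SCNN1A and 0.152 for FOXA2. FOXA2 was higher, at 6.90 ± 0.358 TPM in LIN28B and 4.40 ± 0.476 TPM in EV cells (SD, n = 3 each; 0.55, limma adjusted p = 0.0439). The sodium-proton exchanger SLC9A2 was lower, at 4.08 ± 0.665 TPM in LIN28B and 8.04 ± 1.24 TPM in EV cells (SD, n = 3 each; -0.83, limma adjusted p = 0.00789). FXYD3 (-0.55, limma adjusted p = 0.0274), VIPR1 (-0.39, limma adjusted p = 0.0258) and the sodium channel subunit SCNN1A (-0.33, limma adjusted p = 0.028) were lower as well. Under the LoVo label 58 of the 104 were higher and 23 lower in LIN28B than in EV cells, 77.9% against 56.8%. The share of higher calls over all genes in that contrast was 70.9% as deposited and 48.6% with median-of-ratios scaling, which moved the median of all genes by -0.29 and left 48 list genes higher and 32 lower. Each of the 9 transcription factors was higher under both, among them GATA6 (2.41, limma adjusted p = 4.75e-12) and FOXA1 (2.50, limma adjusted p = 5.12e-12). PAPSS2 averaged 40.5 ± 3.26 TPM in LoVo-labelled LIN28B and 4.79 ± 1.56 TPM in LoVo EV cells (SD, n = 3 each). KCNE3, the partner subunit of KCNQ1 in colonic crypts, averaged 23.1 ± 1.96 TPM in LoVo-labelled LIN28B and 2.22 ± 0.810 TPM in LoVo EV cells (SD, n = 3 each).

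**Figure D4:**
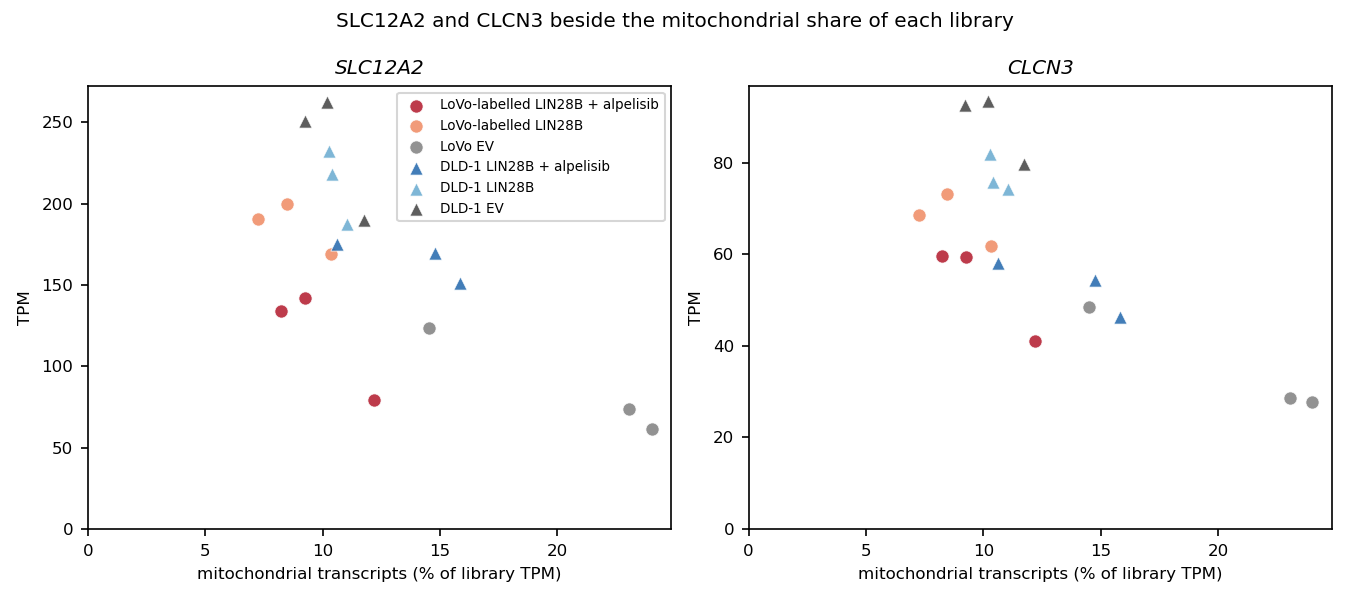
SLC12A2 and CLCN3 in TPM, in separate panels, against the share of TPM in mitochondrially encoded transcripts, in percent, for each of the 18 libraries. LoVo EV libraries lie at 24.0%, 23.1% and 14.5%, and the other 15 at 7.24% to 15.8%.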

How the data were processed

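Messenger RNA libraries were sequenced from LoVo and DLD-1 cells. The authors deposited TPM values, that is values per gene corrected for gene length and scaled to the same sum in each library; the submitters' processing notes name STAR 2.7.10, Picard, HTSeq and DESeq2 and the build hg38, while no source used here gives the strand setting or the annotation. Sequencing depth cannot be read from TPM and is unknown, and no counting interval is given; 23010 to 25501 genes were above 0 per library. Of 61806 Ensembl identifiers, 61757 matched a symbol in GENCODE 29, the source of gene positions on GRCh38.

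All 18 libraries entered 1 limma model (limma 3.58.1, R 4.3.3) on log2(TPM + 1) with a term per group and a trended prior, for 18537 genes at 1 TPM or more in at least 3 libraries, 2764 of them with a 0 in at least 1 library. Tests were two-sided, with Benjamini-Hochberg adjustment within each of 8 comparisons. Fold ratios are of mean TPM. Alternatives were median-of-ratios scaling, removal of mitochondrial transcripts, a pseudocount of 0.1, no filter, only the groups compared, a replicate block, leaving out each library, and leaving out LoVo EV libraries 1 and 2. The 9 genes and the 12 lists were chosen with earlier results of these data known. List genes named are, for each list and comparison, among up to 3 with the smallest p among those called with a group mean of at least 2 TPM; like genes had the highest Pearson r, 5 for CFTR and 3 each for SLC26A2 and SLC12A2. Overlapping neighbours, SLC13A4 and SLC26A3 were named outside that rule, after their values were seen. So were VIPR1, CDX2, SUMF1, KCNQ1 and CAB39 in further contrasts. Fibroblast, leukocyte and endothelial markers served as the check for other cell types.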

Additional observations from a re-analysis of the deposited data

Results flagged for a closer look

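The response of SLC26A2 to alpelisib differed between LoVo-labelled and DLD-1 LIN28B cells by a test of the difference itself. The effect in LoVo-labelled LIN28B cells minus that in DLD-1 LIN28B cells was 1.96 on the log2(TPM + 1) scale (SE 0.19, limma adjusted p = 9.17e-05), and the fits that left out 1 library gave 1.91 to 2.06. Means were 36.8 TPM with alpelisib and 9.92 TPM without in LoVo-labelled cells, and 3.48 TPM with and 4.06 TPM without in DLD-1.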

How the results depend on the processing

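Of 828 recomputed differences of the tested genes, 790 kept direction and side of the threshold, 28 fell below it, 10 passed it and none reversed. The calls of CFTR and SLC26A2 with alpelisib, described above, held under every alternative run. Leaving out each library gave 185 to 228 called genes against 469 for LIN28B against EV in DLD-1, 9116 to 10366 against 10530 under the LoVo label, 4033 to 5242 against 5744 for alpelisib in DLD-1, 5797 to 6850 against 7364 in LoVo-labelled cells, 82 to 149 against 157 for the difference in drug effect, 3882 to 5101 against 5540 for LIN28B with alpelisib against EV in DLD-1, 8719 to 10165 against 10294 for LoVo EV against DLD-1 EV, and 1780 to 1988 against 2592 for LoVo-labelled against DLD-1 LIN28B cells. Among the 8 tested genes these fits called 0, 7, 1 to 2, 3 to 6, 1, 2 to 3, 5 to 6 and 3 to 4, in the same order. Without a filter 290 genes were called for LIN28B against EV in DLD-1, without LoVo EV libraries 1 and 2 6868 under the LoVo label and 6223 between the EV groups, and with median-of-ratios scaling 262 for the difference in drug effect; the cause was not tested. The labels do not say whether same-numbered replicates shared a culture or day, and correlations of their deviations were -0.188 to 0.119. With the replicate block 5341 genes were called for alpelisib in DLD-1, 7068 in LoVo-labelled cells and 314 for LIN28B against EV in DLD-1. The block changed no call among the 8. Unknown depth limits SLC4A4 and ANO1 in DLD-1, both near 0 TPM.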

Other observations

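Of 4 tested carbonic anhydrases, enzymes that supply and buffer bicarbonate, CA12 rose and CA9 fell with alpelisib in both sets of cells, with deposited values and with median-of-ratios scaling. These are 2 of 4, beside 31.0% of all genes called in DLD-1 and 39.7% in LoVo-labelled cells, and CA2 and CA13 did not pass. CA12, a membrane-bound form, averaged 34.8 ± 0.789 TPM with alpelisib and 10.7 ± 0.314 TPM without in LoVo-labelled LIN28B cells (SD, n = 3 each; 1.62, limma adjusted p = 9.65e-07). In DLD-1 LIN28B cells CA12 averaged 6.68 ± 0.445 TPM with alpelisib and 2.00 ± 0.483 TPM without (SD, n = 3 each; 1.37, limma adjusted p = 1.47e-05). CA9, the hypoxia-inducible membrane form, averaged 1.70 ± 0.371 TPM with alpelisib and 6.58 ± 0.675 TPM without in DLD-1 LIN28B cells (SD, n = 3 each; -1.50, limma adjusted p = 0.000843). LoVo EV cells held the most CA9, at 155 ± 11.8 TPM, against which LoVo-labelled LIN28B cells held 3.19 ± 2.06 TPM (SD, n = 3 each).

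Of 9 sodium-proton exchangers and sodium channel subunits, 1 fell and none rose with alpelisib in DLD-1 with limma (11.1% against 31.0% of all genes), and 3 rose and none fell in LoVo-labelled cells (33.3% against 39.7%); with median-of-ratios scaling 1 rose and 0 fell in DLD-1, and 3 and 0 did so in LoVo-labelled cells. SLC9A8, an organellar and apical exchanger, averaged 11.1 ± 0.302 TPM with alpelisib and 6.11 ± 0.185 TPM without in LoVo-labelled LIN28B cells (SD, n = 3 each; 0.76, limma adjusted p = 7.73e-05). Among 5 other SLC4 bicarbonate transporters 1 rose and 1 fell in DLD-1 (2 of 5, against 31.0% of all genes), and 3 rose and 1 fell in LoVo-labelled cells (4 of 5, against 39.7%), counts that the scaling left as they were. The sodium-bicarbonate cotransporter SLC4A7 fell by 0.77 in DLD-1 (limma adjusted p = 0.00199) and by 1.23 in LoVo-labelled cells (limma adjusted p = 2.14e-05).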
